A study of Mus musculus with 16 samples.

Results

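A set of 7 genes of the complement system was followed in the kidney cortex of sedentary and exercised mice: C1ra, C1s1, C4b, C3, Cfb, Serping1 and Cd55. They were taken from the deposited count table by their Ensembl IDs, matched to symbols in GENCODE M21, and make up 7 of its 55414 IDs. The set was put together with the levels of these genes in the same libraries already known, so their levels and differences are given as a description and carry no test. All 7 passed the filter on low counts and were among the 16126 genes tested across the table.

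The animals were wild-type male mice of the inbred strain C57BL/6J, and RNA was taken from frozen pieces of kidney cortex. Sedentary mice were set against mice made to run on a treadmill at 70% of their capacity for 40 minutes, over 1 day (the 24 h group), 1 wk or 2 wk, with 4 libraries in each of the 4 groups. The labels do not say that each library came from its own animal, nor whether the 24 h group was killed within the day of running or 24 h after 1 run. A letter in the sample titles, which no label explains, separates all exercised from all sedentary libraries, so that whatever it marks and exercise cannot be told apart. Libraries are called by the numbers 1 to 4 of their titles.

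Complement is a system of plasma and cell-surface proteins that marks particles for uptake and can open pores in membranes. In the classical pathway, antibody or other ligands bind C1q, which carries the proteases C1r and C1s; C1s cuts C4 and C2, and the enzyme they form cuts C3, the protein on which all routes of activation meet. The alternative pathway amplifies that step with factor B, and regulators such as the C1 inhibitor and CD55 hold the cascade back. Most circulating complement is made by the liver, but tubule cells, fibroblasts and macrophages of the kidney also transcribe several of its genes.

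The libraries held 39766260 to 66852397 counts each, and replicates differed from each other beyond counting error. Tubule markers were abundant in every library: in sedentary mice the phosphate transporter gene Slc34a1 was at 6940 CPM (counts scaled to the size of the library, with TMM factors) and the uromodulin gene Umod at 2630 CPM. The liver gene Alb reached 5.66 to 11.4 CPM. With edgeR's quasi-likelihood test and Benjamini-Hochberg adjustment over all genes, no gene passed 0.05 between any running group and sedentary mice, and at an unadjusted p under 0.05 there were 1439 genes at 24 h, 975 at 1 wk and 1170 at 2 wk. DESeq2 called 78, 12 and 31 genes and voom 59, 6 and 7. Library 3 of the 24 h group stood apart for several genes below: it had the highest C1ra, C1s1 and Serping1 and the lowest C4b and Cfb of its group. Many of the results that rest on it are given with and without it, but not all, such as the log2 differences of C7 and C5ar1.

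The 7 genes lay at different levels. On the RPKM scale, which divides CPM by exon length in kilobases, Cfb (21.3 ± 1.07, SD, n = 4) and Serping1 (17.3 ± 1.83) were the most abundant in sedentary mice. RPKM takes no account of bases shared with other genes, given below for Cfb, C1ra, C1s1, C4b and Cd55. How reads over such bases were counted is not known, so the order between genes is approximate. C1s1 (4.93 ± 0.516 RPKM), Cd55 (4.06 ± 0.66) and C1ra (3.45 ± 0.484) followed, with overlapping ranges between neighbours in that order. C3 (2.15 ± 0.398 RPKM) and C4b (0.986 ± 0.301) were lowest, and each lay below the gene before it in all 4 libraries with no overlap. The order was the same at 1 wk and 2 wk, although Cfb and Serping1 then overlapped, as did C1ra and C3. C1ra was above C3 in 4 of 4 libraries at 1 wk and in 3 of 4 at 2 wk. At 24 h the mean of Serping1 (24.1 ± 6.45 RPKM) stood above that of Cfb (18.3 ± 1.89), with Serping1 the higher gene in 2 of 4 libraries, and the mean of C3 (3.65 ± 1.16) stood just above that of C1ra (3.59 ± 0.951), with overlapping ranges.

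**Figure D1:**
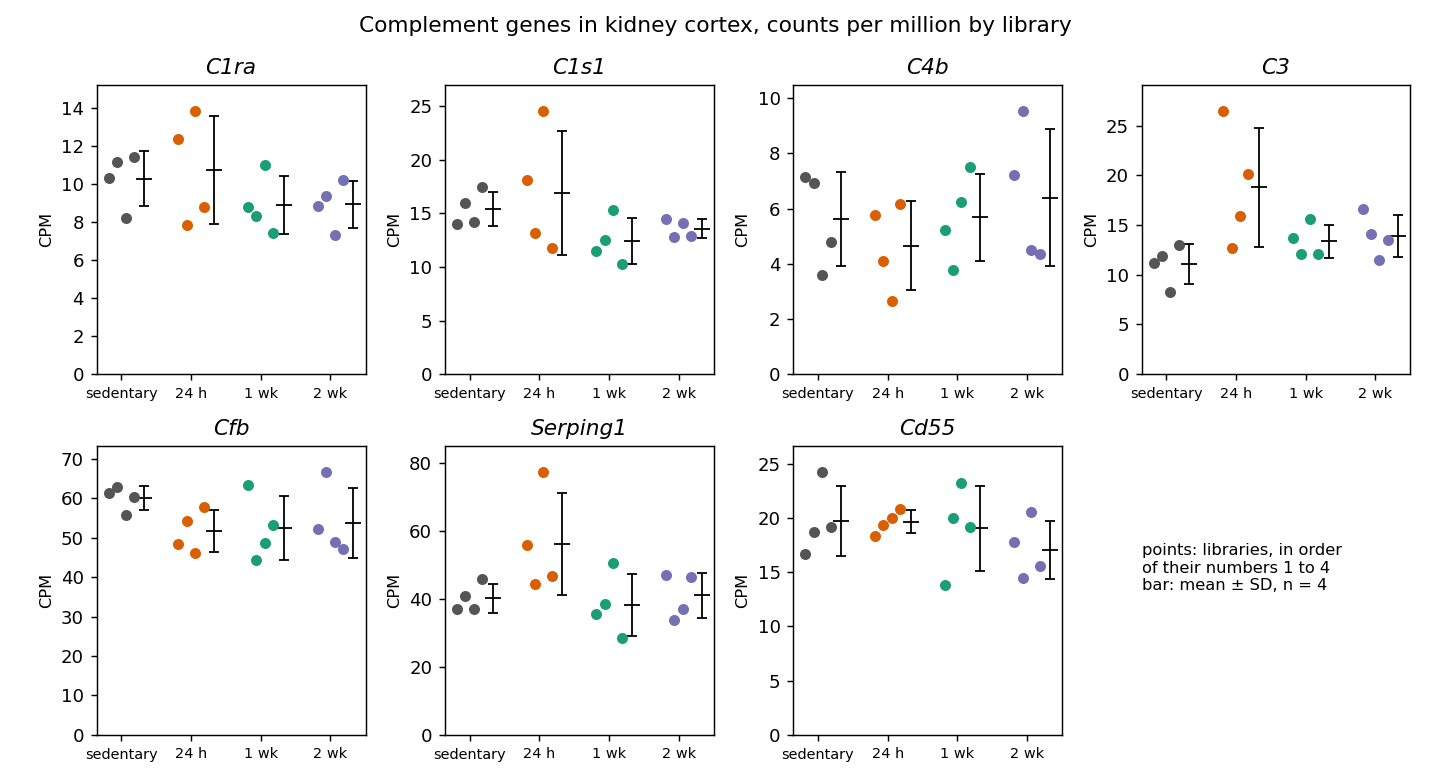
CPM of the 7 complement genes in each of the 16 libraries, by group, with points in the order of the library numbers and bars for the mean ± SD (n = 4). C3 runs from 12.7 to 26.5 CPM at 24 h and from 8.22 to 13 CPM in sedentary mice, and the running and sedentary libraries overlap for every gene.

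C1ra and C1s1 encode the mouse C1r and C1s, the paired serine proteases of the first complement component. They lie beside each other and are read in opposite directions, C1ra (GRCm38, chromosome 6, 124512405 to 124523443, plus strand) and C1s1 (chromosome 6, 124530345 to 124542359, minus strand). Their promoters, from RefSeq on GRCm38.p6, are shown because the levels of the 2 genes went together across libraries, as given further on. Capitals mark matches to the C/EBP core TTGCNNAA and the gamma-activated site TTCNNNGAA, searched on both strands. Each window runs from 250 bases before to 50 bases after a start given by RefSeq. For C1ra that start lies inside the span given above. Its window begins at 124512371 and ends at 124512670, so most of it lies after the first base of that span.

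C1ra chr6:124512371-124512670 plus strand: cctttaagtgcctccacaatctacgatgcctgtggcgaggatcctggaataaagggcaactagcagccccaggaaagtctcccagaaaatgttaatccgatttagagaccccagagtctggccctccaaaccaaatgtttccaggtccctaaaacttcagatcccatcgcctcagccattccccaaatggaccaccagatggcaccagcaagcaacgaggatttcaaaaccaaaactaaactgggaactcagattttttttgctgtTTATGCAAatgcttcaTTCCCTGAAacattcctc

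C1s1 chr6:124542310-124542609 minus strand: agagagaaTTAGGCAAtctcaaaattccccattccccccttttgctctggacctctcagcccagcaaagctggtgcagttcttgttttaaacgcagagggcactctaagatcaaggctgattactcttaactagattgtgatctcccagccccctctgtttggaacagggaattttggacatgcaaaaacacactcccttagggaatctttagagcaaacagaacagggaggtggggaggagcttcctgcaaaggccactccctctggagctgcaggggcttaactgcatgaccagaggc

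In C1ra the C/EBP core stood at bases 267 to 274 of the window and the gamma-activated site at bases 283 to 291, both after the RefSeq start. In C1s1 a C/EBP core stood at bases 9 to 16. RefSeq lists a further C1s1 window, chr6:124542272-124542571, that does not reach this match. Of 32817 promoters of this length, 10.8% held the C/EBP core and 8.29% the gamma-activated site. A match describes the letters only and is neither a bound site nor a cause.

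For C1ra, the sedentary libraries 1 to 4 were at 10.3, 11.2, 8.22 and 11.4 CPM, and those of the 24 h group at 12.3, 7.86, 13.8 and 8.80 CPM. At 1 wk they were at 8.81, 8.30, 11 and 7.44 CPM, and at 2 wk at 8.84, 9.35, 7.29 and 10.2 CPM. Of the 24 h libraries, 1 and 3 lay above the sedentary range, 2 below it and 4 within it, and all 4 groups overlapped. The log2 difference from sedentary mice was 0.06 ± 0.17 (SE) at 24 h, −0.21 ± 0.17 at 1 wk and −0.20 ± 0.17 at 2 wk. Without library 3 the 24 h value was −0.08.

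For C1s1, the sedentary libraries were at 14.1, 16, 14.2 and 17.4 CPM and the 24 h libraries at 18.1, 13.1, 24.5 and 11.7 CPM. Values at 1 wk were 11.5, 12.5, 15.3 and 10.2 CPM, and at 2 wk 14.5, 12.8, 14.1 and 12.9 CPM. The 24 h group was again spread to both sides of the sedentary range, with a coefficient of variation of 34.3% against 10.5% in sedentary mice, while the 2 wk libraries lay close together (6.44%). The log2 difference was 0.13 ± 0.18 (SE) at 24 h, −0.32 ± 0.18 at 1 wk and −0.19 ± 0.18 at 2 wk. Leaving out library 3 turned the 24 h value to −0.11. Between durations, 1 wk lay below 24 h by a log2 difference of −0.45 ± 0.18, or −0.21 without that library.

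Both genes have a near-identical partner, and no source used here says how reads that match 2 genes were counted. Of the 50-base stretches of C1ra transcripts, 48% also occur in C1rb, and 21.8% of those of C1s1 occur in C1s2. C1rb had at most 2 counts in a library and C1s2 at most 13, so their own listed counts were small beside the 317 to 661 counts of C1ra and 508 to 1129 of C1s1. Part of the C1s1 exons is also overlapped by an antisense gene, Gm16567, with at most 2 counts.

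C4b encodes complement C4, the protein cut by C1s whose larger fragment binds to surfaces and forms part of the classical C3 convertase (chromosome 17, 34728380 to 34743882, minus strand). Its sedentary libraries were at 7.15, 6.94, 3.61 and 4.78 CPM and its 24 h libraries at 5.75, 4.09, 2.65 and 6.15 CPM. Values were 5.21, 3.79, 6.25 and 7.50 CPM at 1 wk and 7.22, 9.53, 4.5 and 4.35 CPM at 2 wk. High and low libraries occurred side by side in every group, and the coefficient of variation ran from 27.6% at 1 wk to 38.6% at 2 wk. The log2 difference from sedentary mice was −0.27 ± 0.30 (SE) at 24 h, 0.02 ± 0.29 at 1 wk and 0.19 ± 0.29 at 2 wk, with standard errors above those of the other 6 genes. It was −0.07 at 24 h without library 3, and −0.08 at 2 wk without library 2 of that group.

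C4b rested on the fewest counts, 122 to 643 per library, and 34.6% of its 50-base stretches also occur in C4a, a close copy. C4a was at 1.53 ± 0.0747 CPM in sedentary mice (SD, n = 4) and 0.967 ± 0.387 CPM at 24 h, with all 24 h libraries below all sedentary ones, a log2 difference of −0.67 ± 0.29 that did not pass with edgeR's adjusted p of 0.508.

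C3 is the central component, cut by the C3 convertases into the anaphylatoxin C3a and the opsonin C3b (chromosome 17, 57203970 to 57228136, minus strand). Of the 7 genes it had the largest difference at 24 h, and its promoter is shown for that reason, from RefSeq on GRCm38.p6, with capitals for the C/EBP core TTGCNNAA and the TATA box TATAAA.

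C3 chr17:57228087-57228386 minus strand: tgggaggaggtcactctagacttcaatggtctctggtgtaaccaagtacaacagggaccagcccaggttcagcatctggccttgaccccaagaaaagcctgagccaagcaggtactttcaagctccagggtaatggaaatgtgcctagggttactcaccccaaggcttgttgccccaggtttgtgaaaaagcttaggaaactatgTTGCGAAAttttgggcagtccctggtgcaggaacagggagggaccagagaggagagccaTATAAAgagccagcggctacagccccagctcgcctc

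The C/EBP core stood at bases 206 to 213, ending 37 bases before the start of the gene. The match to the TATA box stood at bases 265 to 270 of the window, after that start. A TATAAA was found in 13.6% of the 32817 promoters. No match was found in these 3 windows for the interferon-stimulated response element, present in 3.43% of promoters, or for the NF-kB site, present in 4.5%. The Cd55 window held none of the 5 motifs. No promoter sequence is given for C4b, Cfb and Serping1.

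In the sedentary group C3 was at 11.2, 11.9, 8.22 and 13 CPM, and in the 24 h group at 26.5, 12.7, 15.9 and 20.1 CPM. At 1 wk it was at 13.7, 12.1, 15.6 and 12.1 CPM, and at 2 wk at 16.6, 14.1, 11.5 and 13.5 CPM. At 24 h 3 of the 4 libraries lay above the highest sedentary one, while library 2 fell just inside the sedentary range, so the groups overlapped. The mean was 18.8 ± 5.96 CPM (SD, n = 4) at 24 h and 11.1 ± 2.05 CPM in sedentary mice, a fitted ratio of 1.70 and a log2 difference of 0.76 ± 0.19 (SE). At 1 wk the difference from sedentary mice was 0.27 ± 0.19 and at 2 wk 0.33 ± 0.19. Measured from 24 h, C3 was at −0.50 ± 0.18 at 1 wk and −0.44 ± 0.18 at 2 wk.

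Library 1, with 26.5 CPM, carried part of the C3 value at 24 h, which was 0.55 without it. Without library 3 it was 0.84, and over all 16 alternatives it stayed between 0.55 and 0.91. No 50-base stretch of C3 occurs in another gene, and its counts were 390 to 1417 per library.

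Cfb encodes factor B, the protease that joins C3b to form the alternative C3 convertase (chromosome 17, 34856374 to 34862518, minus strand). The sedentary libraries were at 61.3, 62.9, 55.8 and 60.3 CPM and those at 24 h at 48.5, 54.3, 46.2 and 57.9 CPM. They were at 63.5, 44.4, 48.6 and 53.4 CPM at 1 wk and at 52.3, 66.7, 49.0 and 47.1 CPM at 2 wk. The sedentary libraries were tight, with a coefficient of variation of 5.05%, and most running libraries lay below them. Exceptions were 1 library at 24 h, 1 at 1 wk and 1 at 2 wk, which lay within or above the sedentary range. The log2 difference was −0.22 ± 0.12 (SE) at 24 h, −0.20 ± 0.12 at 1 wk and −0.16 ± 0.12 at 2 wk, and it was below 0 under all 16 alternatives at each duration. Without library 3 of the 24 h group the 24 h value was −0.17. Most of the Cfb transcript (73% of its 50-base stretches) is shared with the readthrough gene Gm20547, which had 0 counts in every library. Of the 2825 exon bases of Cfb, 2246 also lie in Gm20547 on the same strand. Whether reads over them were left out of both counts is not known. The level of Cfb relative to other genes, on the RPKM scale and in ratios, is therefore uncertain.

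Serping1 encodes the C1 inhibitor, which inactivates C1r and C1s (chromosome 2, 84765387 to 84775444, minus strand). It was at 37.0, 40.8, 36.8 and 45.9 CPM in the sedentary libraries and at 55.8, 44.4, 77.2 and 46.6 CPM in those of the 24 h group. At 1 wk it was at 35.6, 38.3, 50.4 and 28.6 CPM, and at 2 wk at 46.9, 33.8, 37.0 and 46.4 CPM. At 24 h 3 of the 4 libraries lay above the highest sedentary library, 1 of them by a small margin, and library 3 far above. The log2 difference was 0.48 ± 0.17 (SE) at 24 h, a fitted ratio of 1.40, then −0.07 ± 0.17 at 1 wk and 0.03 ± 0.17 at 2 wk. Without library 3 the 24 h value was 0.29. Compared with 24 h, Serping1 was at −0.55 ± 0.17 at 1 wk and −0.45 ± 0.17 at 2 wk, or −0.36 and −0.26 without that library. It shares no 50-base stretch with another gene.

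The ratio of inhibitor to protease, computed within each library on the RPKM scale and chosen after the values were seen, was steady in sedentary mice. Serping1 stood at 3.50 ± 0.0526 times C1s1 there (SD, n = 4, range 3.43 to 3.54) and at 4.57 ± 0.548 times at 24 h (4.15 to 5.35). No 24 h library reached down to the sedentary range. At 1 wk the ratio was 4.12 ± 0.277 (3.76 to 4.43), also above the sedentary range, and at 2 wk 4.07 ± 0.637 (3.53 to 4.84), which overlapped it. Such a separation was not limited to this ratio: of the 21 ratios between pairs of the 7 genes, 6 did not overlap the sedentary range at 24 h, 4 at 1 wk and 2 at 2 wk. Pairs that share a gene are not independent, and no share was computed for ratios of other genes. Nothing is therefore read from these counts. At 24 h all 6 such ratios involved Serping1 or C3. These were the 2 genes with the largest log2 differences at 24 h (0.48 and 0.76), so the ratios add nothing to those differences. For example, the sedentary libraries had Serping1 to Cfb ratios from 0.733 to 0.925, and those of the 24 h group from 0.979 to 2.03. The ratio of C1s1 to C1ra was 1.43 ± 0.183 over all 16 libraries, with group means from 1.33 to 1.49.

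Cd55 encodes decay-accelerating factor, a membrane protein that breaks up C3 convertases on the cell that carries it (chromosome 1, 130439027 to 130462744, minus strand). The sedentary libraries were at 16.7, 18.7, 24.2 and 19.2 CPM and those at 24 h at 18.4, 19.3, 19.99 and 20.8 CPM. It was at 13.8, 20.01, 23.3 and 19.1 CPM at 1 wk and at 17.7, 14.4, 20.5 and 15.6 CPM at 2 wk. The ranges of all 4 groups overlapped, and the 24 h libraries were the closest together, with a coefficient of variation of 5.34%. The log2 difference was 0.00 ± 0.14 (SE) at 24 h, −0.05 ± 0.14 at 1 wk and −0.21 ± 0.14 at 2 wk. Its copy Cd55b had at most 2 counts in a library, and 8.0% of the 50-base stretches of Cd55 occur in it.

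**Figure D2:**
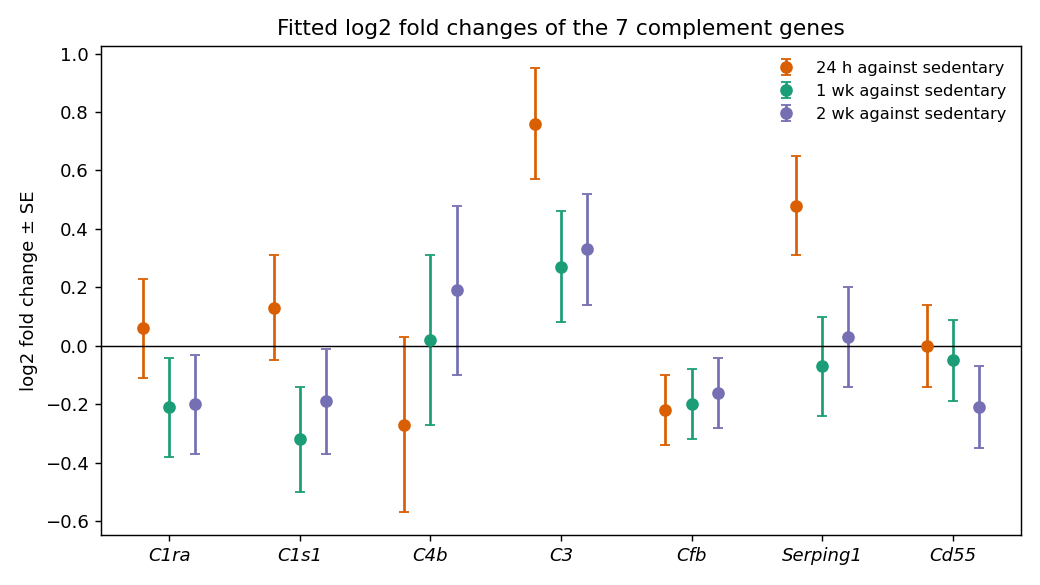
Fitted log2 difference from sedentary mice (vertical axis) of the 7 complement genes at 24 h, 1 wk and 2 wk, with bars for ± 1 standard error from the fit over all 16 libraries. C3 (0.76) and Serping1 (0.48) at 24 h are the highest points, and Cfb lies below 0 at all 3 durations.

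As a set, 4 of the 7 genes had a positive log2 difference at 24 h with a median of 0.06, 2 of 7 at 1 wk with a median of −0.07, and 3 of 7 at 2 wk with a median of −0.16. Over all 16126 genes tested, 49%, 51.1% and 52.1% were positive, with medians of 0.00, 0.00 and 0.01. Without library 3 of the 24 h group, 2 of 7 were positive at 24 h and the median was −0.07. With either other scaling 5 of 7 were positive at 24 h, since Cd55 lay at 0. None of the 7 genes passed an adjusted p of 0.05 with edgeR in any comparison, where the share of all genes called was 0% in 5 of the 6 comparisons and 0.0124% at 2 wk against 24 h. At an unadjusted p under 0.05, 2 of the 7, C3 and Serping1, were counted at 24 h, against 8.92% of all genes, and 0 of 7 at 1 wk (6.05%) and at 2 wk (7.26%). By DESeq2 1 of the 7, C3, had an adjusted p under 0.05 at 24 h, against 0.487% of all genes, and by voom 0 of 7 (0.366%). The set was chosen with these differences known, so nothing is read from these counts.

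Between durations, 3 of the 7, C1s1, C3 and Serping1, had an unadjusted p under 0.05 at 1 wk against 24 h, all lower at 1 wk, with 4.72% of all genes counted in that direction. C3 and Serping1 did so at 2 wk against 24 h (4.32%), and 0 of 7 at 2 wk against 1 wk (4.58% in either direction). Without library 3 of the 24 h group the first count was 2 (C3 and Serping1) and the second 1 (C3). The comparisons share the 24 h and sedentary libraries, and their values are not independent of each other. For no gene of the 7 did all running libraries of a group lie above or all below the sedentary ones, against 3.55% of all genes above and 3.66% below at 24 h, 1.71% and 2.51% at 1 wk, and 2.29% and 2.61% at 2 wk.

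Across the 16 libraries, the classical proteases and their inhibitor went together. Pearson's r of log2 CPM was 0.81 between C1ra and C1s1 (Spearman's rho 0.70), 0.82 between C1s1 and Serping1 (0.66), and 0.75 between C1ra and Serping1 (0.63). These r were 0.77, 0.86 and 0.80 for deviations from the group means, and 0.73, 0.66 and 0.62 without library 3 of the 24 h group. C4b and Cfb formed a further pair (r = 0.57, rho 0.51), while Cfb ran opposite to Serping1 (r = −0.47, rho −0.54) and to Cd55 (r = −0.43, rho −0.38). Without that library these r were 0.49, −0.35 and −0.42. Between C4b and Serping1 r was −0.49 (rho −0.25), or −0.18 without that library. Over all libraries C3 lay nearest to Serping1 (r = 0.57, rho 0.66). For deviations from the group means that r was 0.35, and C3 lay nearer to C1ra (0.61) and C4b (0.54). All such values are descriptions over 16 libraries of genes that share the same RNA, library and scaling, out of 21 pairs computed.

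**Figure D3:**
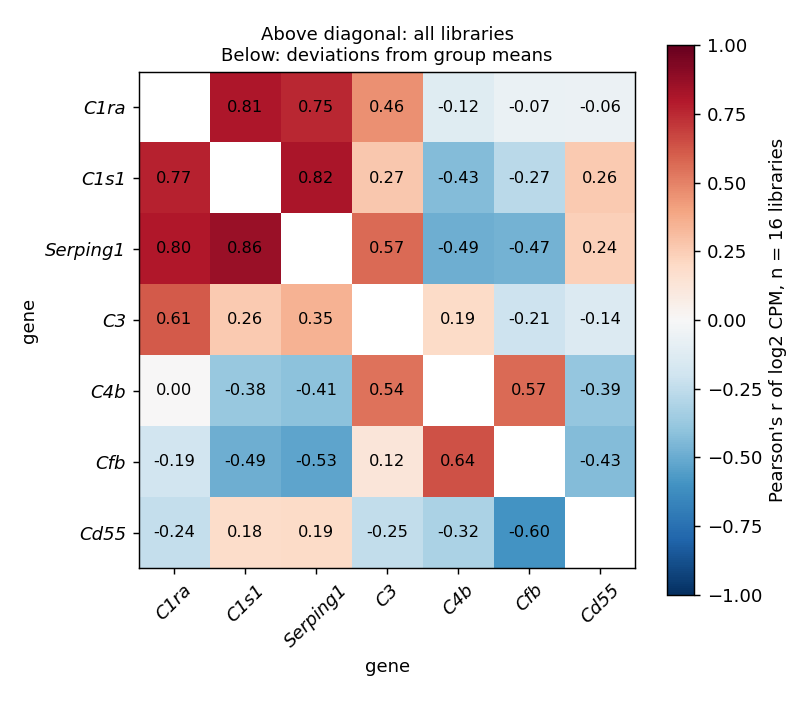
Pearson's r of log2 CPM between the 7 genes over 16 libraries, above the diagonal for all libraries and below it for deviations from group means, on a colour scale from −1 to 1. C1ra, C1s1 and Serping1 form a block of 0.75 to 0.82 above the diagonal and 0.77 to 0.86 below it.

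The genes whose levels ran most like each of the 7 were looked up among 11211 genes whose log2 CPM averaged 1 or more. For C1ra they were Mmp14 (r = 0.95, rho 0.96), a membrane matrix metalloproteinase, Tgfbi (0.93, rho 0.92) and Emilin1 (0.89, rho 0.79). For C1s1 they were Olfml3 (0.94, rho 0.92), the metalloproteinase inhibitor gene Timp2 (0.90, rho 0.83) and Ccn2 (0.90, rho 0.84). Serping1 had Rcn3 (0.95, rho 0.93), the matrix Gla protein gene Mgp (0.95, rho 0.92) and Ifitm3 (0.92, rho 0.79), and C3 had the collagen gene Col1a1 (0.83, rho 0.72), Ruvbl1 (0.82, rho 0.84) and Ccdc92 (0.82, rho 0.69). Cfb had Azgp1 (0.89, rho 0.92), the plasma protein gene Hrg (0.88, rho 0.89) and Clip4 (0.86, rho 0.84), and C4b had the replication gene Mcm2 (0.89, rho 0.84), the mismatch repair gene Msh3 (0.83, rho 0.80) and Ncapd2 (0.83, rho 0.81). Cd55 had Ifngr2 (0.90, rho 0.90), Smim15 (0.88, rho 0.87) and Psma1 (0.88, rho 0.93). Without the 2 libraries farthest from each gene's median, r was 0.76 or more for all of these except Ccdc92 (0.59) and Msh3 (0.66).

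The levels of marker lists of cortical cell types ran with those of several of the 7 genes. Serping1 had r = 0.92 (rho 0.86) with the mean log2 level of 8 fibroblast and pericyte genes over 16 libraries, and 0.86 without library 3 of the 24 h group. It also went with 10 macrophage genes (0.79, rho 0.64, and 0.66 without that library). C1s1 had r = 0.82 (rho 0.71) with the macrophage genes and 0.77 (rho 0.61) with the fibroblast and pericyte genes, or 0.71 and 0.61 without that library. For C1ra the values were 0.75 (rho 0.60) and 0.74 (rho 0.66), or 0.63 and 0.62 without it. With 8 endothelial genes C1ra had r = 0.65 (rho 0.62), C1s1 0.63 (rho 0.54) and Serping1 0.42 (rho 0.17), or 0.55, 0.50 and 0.19 without that library. Cfb and C4b went with 8 proximal tubule genes, each at r = 0.72 (0.69 without that library), with which Cd55 ran opposite (r = −0.59, rho −0.68). C3 had r = 0.55 (rho 0.59) with the fibroblast and pericyte genes and 0.36 (rho 0.19) with the macrophage genes. Such values were not limited to these lists. With podocyte genes C3 had r = 0.52 (rho 0.46) and C1ra 0.61 (rho 0.53), or 0.52 and 0.47 without that library. With genes of parietal and injured tubule cells Serping1 had r = 0.69 (rho 0.72), or 0.63 without it. With loop and distal tubule genes Cfb had r = −0.58 (rho −0.55), or −0.64 without it.

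The fibroblast and pericyte list summed to 109 to 150 CPM in sedentary libraries and 124.4 to 206 CPM at 24 h, then 95.6 to 129 CPM at 1 wk and 96.8 to 130 CPM at 2 wk. At 24 h 7 of its 8 genes had a positive log2 difference, with a median of 0.42, or 0.13 without library 3. Its collagen genes were well above 0 in every library, whereas Lum and Postn went down to 0.178 and 0.222 CPM. The macrophage list summed to 337 to 434 CPM in sedentary libraries, 345 to 509 at 24 h, 268 to 400 at 1 wk and 258 to 348 at 2 wk, of which Cd74 gave the most, and 8 of its 9 tested genes were positive at 24 h (median 0.22, or 7 of 9 and 0.11 without library 3) and 0 of 9 at 1 wk and 2 wk (medians −0.35 and −0.27). Its marker Cd163 was at 0 to 0.121 CPM. The endothelial list summed to 243 to 288 CPM in sedentary libraries, 213 to 313 at 24 h, 193.6 to 229 at 1 wk and 187 to 270 at 2 wk. All 8 of its genes had a negative difference at 1 wk (median −0.37). Of these, 7 had an unadjusted p under 0.05, against 3.72% of all genes in that direction. All 8 were negative at 2 wk (median −0.26), while at 24 h 7 of 8 were (median −0.07, or 8 of 8 and −0.17 without library 3). All 8 proximal tubule genes had a negative difference at 24 h, with a median of −0.22 (7 of 8 and −0.19 without library 3), and Cfb was at −0.22 ± 0.12. The part of these lists in the differences of the 7 genes was not tested, and in pieces of tissue more cells of a type and more RNA per cell cannot be told apart.

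**Figure D4:**
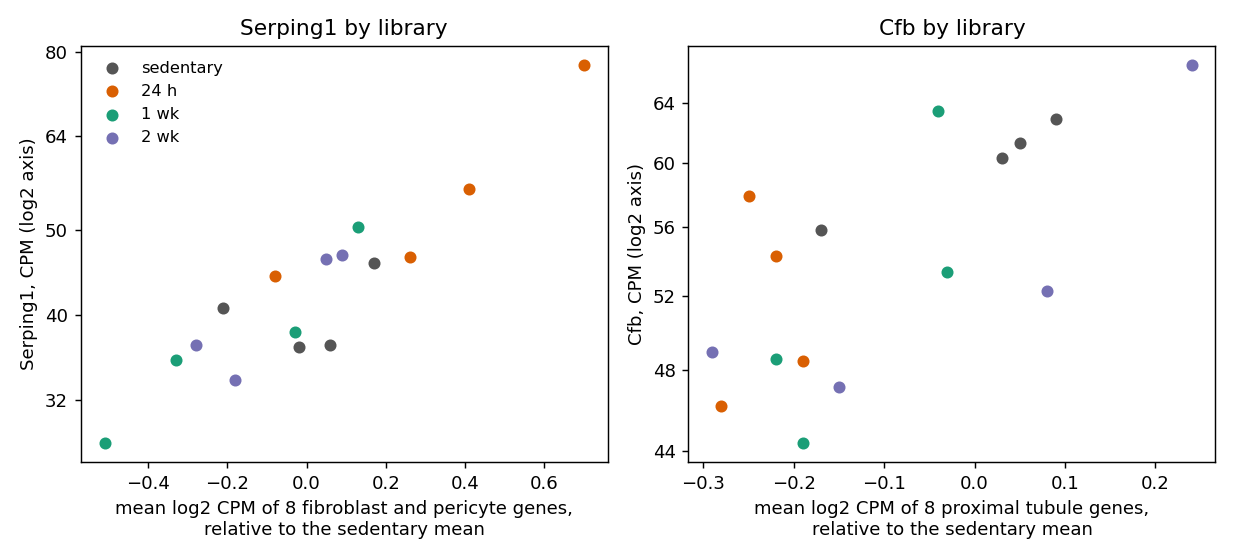
Left, Serping1 (CPM, log2 axis) against the mean log2 CPM of 8 fibroblast and pericyte genes relative to the sedentary mean (r = 0.92), and right, Cfb against 8 proximal tubule genes on the same kind of scale (r = 0.72), with 1 point per library coloured by group. Library 3 of the 24 h group is the highest point on the left, at 77.2 CPM.

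The rest of the pathway was read from lists of 48 further complement genes, of which 35 could be tested. None passed edgeR's adjusted p of 0.05 in any of the 6 comparisons, and none did so by voom. DESeq2 called 3 of them, each in 1 comparison: Clu at 2 wk against sedentary mice, C5ar1 at 1 wk against 24 h (log2 difference −1.45 ± 0.37, SE, adjusted p = 0.0446) and Cr2 at 2 wk against 24 h (1.22 ± 0.31, adjusted p = 0.0366). At 24 h 21 of the 35 had a positive log2 difference, with a median of 0.09, and 6 had an unadjusted p under 0.05: C7, Clu and C5ar1 higher, C4a, C8g and Cfi lower. Of all genes 8.92% had such a p. Without library 3 the median was −0.07, 15 of 36 genes were positive, and C7, Cfi and Clu had such a p. At 1 wk 11 of 35 were positive (median −0.17) and 7 had such a p, and at 2 wk 9 of 35 (median −0.14) and 10 had such a p, against 6.05% and 7.26% of all genes.

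C1q, the recognition part of C1 that binds the C1r and C1s proteases, is built from the products of C1qa, C1qb and C1qc, which macrophages make. C1qa was at 21.4 ± 2.53 CPM in sedentary mice, 23.8 ± 7.28 at 24 h, 16.9 ± 7.01 at 1 wk and 15.8 ± 1.41 at 2 wk (SD, n = 4). All 4 libraries at 2 wk lay below all sedentary ones for each of the 3 genes, with log2 differences of −0.44 ± 0.22 (SE, edgeR's adjusted p = 0.69) for C1qa, −0.47 ± 0.18 (0.579) for C1qb and −0.40 ± 0.19 (0.685) for C1qc. Across all genes tested 2.61% were placed so. C1ra and C1s1, by comparison, were at −0.20 and −0.19 at 2 wk. C2, the other target of C1s, was at 26.7 ± 3.31 CPM in sedentary mice and at −0.23 ± 0.18, −0.25 ± 0.18 and −0.14 ± 0.18 at the 3 durations.

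Clusterin, the product of Clu, binds the terminal complement complex among many other partners. Clu was at 327, 279, 270 and 189 CPM in the sedentary libraries and at 395, 351, 446 and 439 CPM at 24 h. It was at 329, 453, 459 and 358 CPM at 1 wk and at 712.96, 303, 469 and 528 CPM at 2 wk. All libraries at 24 h and at 1 wk lay above all sedentary ones, and at 2 wk library 2 fell among them. The log2 difference was 0.61 ± 0.20 (SE) at 24 h, 0.58 ± 0.20 at 1 wk and 0.92 ± 0.20 at 2 wk, with edgeR's adjusted p of 0.341, 0.652 and 0.232. At 2 wk DESeq2 gave an adjusted p of 0.00907, and leaving out library 2 of that group gave 1.09 with edgeR's adjusted p of 0.0376.

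Of the terminal components, C7 was at 2.16 ± 0.238 CPM in sedentary mice and 3.51 ± 0.968 at 24 h (log2 difference 0.70 ± 0.20, edgeR's adjusted p = 0.289), with no overlap between those libraries. Library 3 of the 24 h group was at 4.95 CPM and the others at 2.95 to 3.20. C8g was at 30.6 ± 2.59 CPM in sedentary mice and 23.5 ± 1.76 at 2 wk (−0.38 ± 0.14, edgeR's adjusted p = 0.548). Hc, the gene of C5, had at most 9 counts in a library. In the lectin pathway Colec11, a collectin, had the smallest p at 1 wk, at 0.741 ± 0.362 CPM against 1.57 ± 0.274 (−1.09 ± 0.31, edgeR's adjusted p = 0.498).

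Among receptors, Itgax, the α chain of an integrin that binds a C3 fragment, was at 1.22 ± 0.155 CPM at 2 wk and 2.17 ± 0.339 in sedentary mice (−0.83 ± 0.23, edgeR's adjusted p = 0.357). The C5a receptor gene C5ar1 was at 1.03 ± 0.519 CPM at 24 h and 0.379 ± 0.0308 at 1 wk. At 24 h its library 3 was at 1.80 CPM and the others at 0.669 to 0.841. DESeq2, which called C5ar1 between these durations, was not run without that library. Cr1l, a membrane regulator of the same family as Cd55, was at 54.9 ± 3.55 CPM in sedentary mice and between 51.8 and 52.5 CPM on average in the running groups, with log2 differences of −0.08, −0.06 and −0.08 (SE 0.08).

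At 1 wk against 24 h, 14 of the 35 further complement genes had an unadjusted p under 0.05, all 14 lower at 1 wk, where 4.72% of all genes were counted in that direction. They included the C1q genes C1qa, C1qb and C1qc, the collectin genes Colec11 and Colec12, the terminal components C6 and C7, and the receptor genes C5ar1, Itgam, Itgax and Itgb2. Without library 3 of the 24 h group 3 remained at such a p, C5ar1, C6 and Itgb2. In the same comparison 9 of 9 macrophage genes, 7 of 8 fibroblast and pericyte genes and 8 of 8 endothelial genes were lower, with medians of −0.57, −0.53 and −0.34. Without library 3 these medians were −0.45, −0.47 and −0.21. The part of these lists in the values was not tested.

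**Figure D5:**
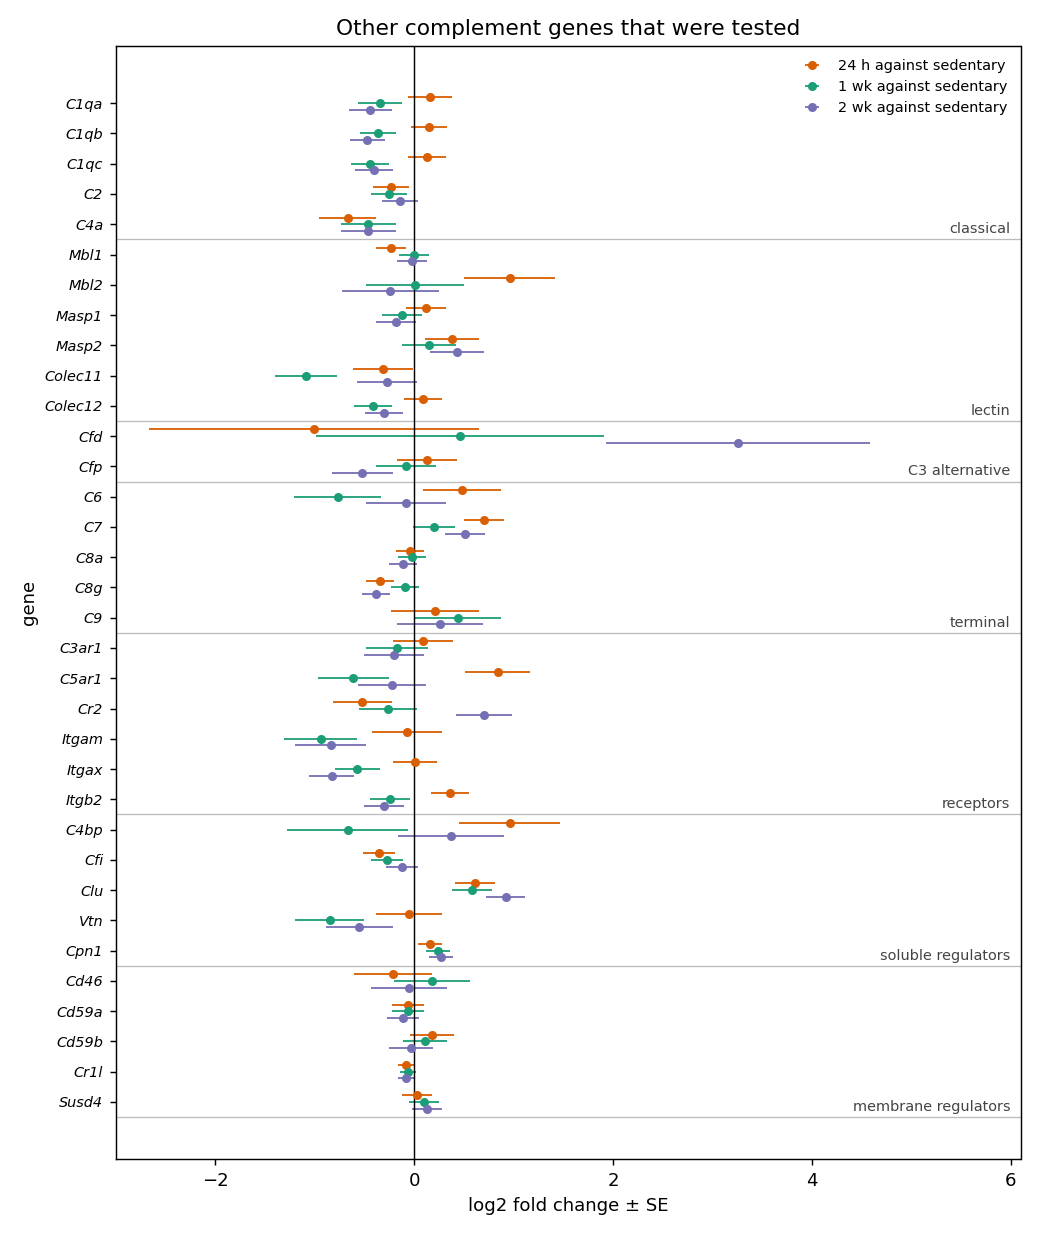
Log2 difference from sedentary mice with ± 1 standard error (horizontal axis) for further complement genes that could be tested, grouped by role, at 24 h, 1 wk and 2 wk. Clu lies above 0 at all 3 durations (0.61, 0.58 and 0.92), C1qa, C1qb and C1qc lie below 0 at 1 wk and 2 wk, and Cfd has the widest bars.

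Cytokine-driven genes that often accompany complement transcription were read from 2 lists. Of 20 interferon-response genes 9 were positive at 24 h (median 0.00), 1 at 1 wk (median −0.21) and 9 at 2 wk (median −0.14), and none passed an adjusted p of 0.05 by edgeR, DESeq2 or voom. At an unadjusted p under 0.05 there were 0, 2 and 3 of them at the 3 durations, against 8.92%, 6.05% and 7.26% of all genes. The 3 of smallest p were Cxcl10 (0.33 ± 0.29), Gbp7 (−0.29 ± 0.27) and Isg15 (0.15 ± 0.25) at 24 h, then Ifit1 (−0.70 ± 0.22), Irf7 (−0.36 ± 0.15) and Ifit3 (−0.33 ± 0.17) at 1 wk, and Irf7 (−0.44 ± 0.15), Ifit3 (−0.41 ± 0.17) and Psmb8 (−0.32 ± 0.15) at 2 wk. Of 22 acute-phase genes, 17 could be tested. Saa1, Saa2, Saa3, Il6 and Tnf did not pass the filter on low counts, with at most 10 counts in a library. At 24 h 16 of the 17 were positive with a median of 0.25 (14 of 17 and 0.16 without library 3). At 1 wk (0.11) and at 2 wk (0.05) 10 of 17 were. The haptoglobin gene Hp was at 0.427 ± 0.24 CPM at 24 h and 0.626 ± 0.114 in sedentary mice (SD, n = 4). None of the acute-phase genes passed an adjusted p of 0.05 by edgeR, DESeq2 or voom. Of the 17, 5, 1 and 1 had an unadjusted p under 0.05 at the 3 durations, against the same shares of all genes. The fibrinogen gene Fga was at 0.60 ± 0.18 at 24 h (edgeR's adjusted p = 0.314), Fgb at 1.31 ± 0.45 (0.39) and Relb, an NF-kB subunit, at 0.41 ± 0.14 (0.39). At 1 wk the smallest p were those of Vcam1 (−0.43 ± 0.18), Lrg1 (0.37 ± 0.18) and Cebpb (0.24 ± 0.16), and at 2 wk those of Stat3 (0.27 ± 0.10), Fga (0.38 ± 0.18) and Vcam1 (−0.35 ± 0.18). Over the 16 libraries the level of this list had r = 0.83 (rho 0.79) with Serping1 and 0.65 (rho 0.68) with C3, and −0.24 (rho −0.24) with Cfb. Without library 3 of the 24 h group these r were 0.68, 0.77 and −0.01.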

How the data were processed

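Kidney cortex RNA was made into strand-marked libraries from polyadenylated RNA, per the labels' protocols. Per the submitters' processing notes, the authors checked reads with FastQC 0.10.1 and made the deposited raw counts with HTSeq 0.10.0 on build GRCm38 (mm10). The sources used here name no aligner, annotation release or strand setting, so genes with a near-identical copy, a readthrough gene or an antisense partner are uncertain. Of the 24 columns, 16 were matched to samples by name, and the 8 that match no sample were not used. GENCODE M21 named 52081 IDs (94.0%, with 99.4% of counts) and gave positions and exon lengths, from which RPKM was computed.

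All 16 libraries entered 1 fit in edgeR 4.0.16 (R 4.3.3), with group as the only term, filterByExpr, TMM scaling, the robust quasi-likelihood F-test and Benjamini-Hochberg adjustment at 0.05. Standard errors are the log2 difference divided by the square root of F. p-values measure the spread between libraries, which may be technical. Alternatives were DESeq2 1.42.0 (Wald test, its size factors), voom with quality weights (limma 3.58.1), other scalings and filters, a replicate block, and leaving out each library. The scripts were tested on simulated counts. Values of 1 further complement gene are not reported here, although it is in the counts over the list.

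The 7 genes and the lists were chosen with earlier results of these data known. The adipocyte list, the motifs, the ratios and the further complement genes given beyond the rule were chosen after their values were seen. By the rule, the 7 genes were named, with the 2 further complement genes of smallest p in each comparison with sedentary mice, any that passed, close copies of the 7, the 3 of smallest p in the interferon and acute-phase lists, and the 3 genes of highest r with each of the 7 (log2 CPM with a prior count of 2). Promoters came from RefSeq (GRCm38.p6), in which 4 of the 7 genes matched, and transcripts were compared in stretches of 50 bases.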

Additional observations from a re-analysis of the deposited data

Results flagged for a closer look

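In groups of 4 libraries, a highest or lowest value was singled out when its gap to the nearest other library, divided by the range of the group, exceeded Dixon's 95% critical value. Of 96 groups checked, 8 met this, where chance gives about 1 in 20, and none was of the 7 genes described above. C1qa reached 27.3 CPM in library 3 at 1 wk, where the other libraries lay at 12.6 to 14.5, and C1qb reached 22.1 CPM in the same library (others 13.7 to 15). C2 was at 29.4 CPM in library 1 at 1 wk (others 19.9 to 20.6). In library 3 of the 24 h group C7 was at 4.95 CPM (others 2.95 to 3.20) and C5ar1 at 1.80 CPM (others 0.669 to 0.841). Itgb2, the β chain of the leukocyte integrins, was at 3.02 CPM in sedentary library 2, below the 3.96 to 4.03 CPM of the others.

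Cfd, the gene of factor D, which cuts factor B and is strongly transcribed in fat, was at 13.9 CPM in library 1 at 2 wk against 0.0593 to 0.704 in the others of that group. In the same library the fat cell genes Adipoq, Plin1, Cidec and Retn were at 2.62, 0.993, 2.18 and 1.04 CPM, and over the other 15 libraries at no more than 0.247, 0.133, 0.739 and 0.107 CPM. These 4 were picked from the list after their values were seen. The whole list of 7 fat cell genes without Cfd, most of it Fabp4 (38.2 CPM), summed to 46.7 CPM in that library, inside the sedentary range of 34.65 to 47.97 CPM. At 1 wk Cfd was at 1.57 CPM in library 2 (others 0.101 to 0.222), with Adipoq at 0.247 CPM. The part of fat in these libraries was not tested.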

How the results depend on the processing

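All 672 alternative values of the log2 differences of the 7 genes moved by less than the spread between replicates. Of 1614 alternative values of single further genes, 1610 stayed on their side of the threshold and 4 passed it. Direction was compared only for values past the threshold. Clu passed at 2 wk by DESeq2 (0.92, adjusted p = 0.00907) and without library 2 of that group (1.09, edgeR's adjusted p = 0.0376). By DESeq2, C5ar1 passed at 1 wk against 24 h (−1.45, adjusted p = 0.0446) and Cr2 at 2 wk against 24 h (1.22, adjusted p = 0.0366).

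The number of genes called over the whole table depended on the test. Against sedentary mice, where edgeR called 0, DESeq2 called 78 at 24 h, 12 at 1 wk and 31 at 2 wk, and voom 59, 6 and 7. Fitting only the 2 groups compared gave 28 at 24 h and 2 at 2 wk, dropping the low-count filter 9 and 5, and scaling by library totals 2 at 24 h. Between durations DESeq2 called 51 at 1 wk against 24 h, 3 at 2 wk against 1 wk and 38 at 2 wk against 24 h (edgeR 0, 0 and 2), and voom 1 and 4 in the latter pair. For 2 wk against 24 h, library totals gave 4, no filter 8 and a filter of 1 CPM in 4 libraries 4. Across the 4 groups edgeR called 2, DESeq2 158, voom 34 and the fit with no filter 10. The cause of these differences was not tested.

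Leaving out 1 library at a time gave 0 to 1 genes at 1 wk, 0 to 8 at 2 wk, 0 to 2 at 1 wk against 24 h, 0 to 7 at 2 wk against 24 h and 0 to 5 across the groups. With the replicate block, 5 genes were called at 2 wk, 11 at 2 wk against 24 h and 5 across the groups, none of the 7. Same-numbered libraries had correlations of their deviations from −0.459 to 0.683, with 13 of 24 pairs over 0.1. Pairs of libraries numbered 3 were all positive, from 0.154 to 0.683. In 18 of 48 checks a library went best with its own number, with 4 libraries to choose from each time. What the numbers mark was not tested, and the main fit did not use them as pairing. The median standard error over all genes at 24 h was 0.144. C4b had the fewest counts of the 7 genes, 122 to 643 per library.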
